A study of Mus musculus with 3 samples.

Results

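The genes described here encode 9 enzymes that make nucleotides, chosen by name: Prps1, Ppat, Gart, Paics and Atic of purine synthesis, Cad of pyrimidine synthesis, and Rrm1, Rrm2 and Tyms, which supply deoxynucleotides. All 9 were found among 22180 named genes, on 12 probe sets; Gart had 3, Rrm2 had 2 and each other gene had 1. RNA was measured on 3 mouse whole-transcript arrays, 1 per group. The first group was FULA 1, a mouse lung adenocarcinoma line grown in serum-containing medium. The others were lung of FVB mice, an inbred strain, after an injection of saline or of urethane. Urethane is a carcinogen that gives mice lung adenomas, and was injected into the peritoneum 1 week before the lung was taken. For the lung arrays, how many mice were used, their age and sex, and the time of sampling after saline are not stated in the labels. With 1 array per group there is no replicate spread and no test was run, so every difference compares these arrays rather than the conditions.

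Dividing cells must double their DNA and make RNA, and draw on purines and pyrimidines that are either built anew or recovered from used bases and nucleosides. New purines are assembled on phosphoribosyl pyrophosphate, which PRPS1 makes from ribose phosphate. New pyrimidines begin with the multifunctional protein CAD. Ribonucleotide reductase, of the subunits RRM1 and RRM2, turns ribonucleotides into deoxyribonucleotides, and thymidylate synthase, the product of Tyms, makes the thymine nucleotide that only DNA needs. In a resting tissue such as adult lung few cells divide, whereas a tumour line in culture divides steadily.

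The deposited columns lay on different scales, with medians over all 41345 probe sets of 4.96 for FULA 1, 0.08 for the saline lung and 1.22 for the urethane lung (log2). Values below are therefore log2 values after quantile normalization, which gives the 3 arrays one distribution, and percentile ranks among all probe sets of an array, which no rescaling of a whole array alters. A rank sets a probe set against others of the same array; since probe sets differ in brightness, ranks are compared between arrays for 1 gene and not between genes. A background mark was set at the 95th percentile of 1105 odorant receptor genes, a class mostly silent in lung: 1.96 for FULA 1, 2.46 for the saline lung and 2.44 for the urethane lung. A difference of 1 (2-fold) made a gene higher or lower, provided that its larger value reached 2.37, the median of all gene values. By that rule FULA 1 had 22.6% of 13590 genes higher and 22.0% lower, set against the saline lung. Against the urethane lung, 22.1% of 13264 genes were higher and 19.5% lower in FULA 1. Between the lungs, 3.27% of 12519 genes were higher and 1.31% lower after urethane. Pairs of probe sets for 1 gene differed by a median of 1.00 (log2) in the difference between FULA 1 and saline lung, 0.96 against the urethane lung and 0.44 between the lungs, so a smaller difference is within what probe sets of one gene commonly disagree by. The sign itself was shared by 253 of 411, 221 of 369 and 188 of 350 pairs, in the same order. The direction of a small difference read by 1 probe set is therefore uncertain, most of all between the lungs.

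The largest difference among the 9 enzymes was that of the large ribonucleotide reductase subunit, in both comparisons with FULA 1, except that with the FULA 1 quantiles as target Cad (3.60) exceeded Rrm1 (3.04) against the saline lung. Rrm1, which holds the catalytic site, had a normalized value of 6.95 for FULA 1, 3.79 for the saline lung and 3.66 for the urethane lung, and percentile ranks of 97.4, 80.8 and 79.2. FULA 1 was high and the lungs were close to each other. The difference was 3.17 (log2), or 8.99-fold, against the saline lung, with 151 of the 13590 genes further above, and 3.30 against the urethane lung. Rrm2, the small subunit that carries the tyrosyl radical and is made when cells copy their DNA, was read by a pair of probe sets of very different brightness. Its first probe set ranked at 88.2 for FULA 1, 61.0 for the saline lung and 58.7 for the urethane lung, with normalized values of 4.64, 2.53 and 2.41. It was thus well above the mark in FULA 1 and at about the mark in both lungs, with differences of 2.11 and 2.23. The second probe set ranked at 27.2, 13.6 and 10.4 in the same order, below the mark on every array. The mean of the pair put Rrm2 at 3.05, 1.79 and 1.67, a difference of 1.27 from the saline lung and 1.38 from the urethane lung, or at least 0.59 and 0.61 with the lungs held at the mark.

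Tyms did not follow the reductase. Its normalized values were 5.12 for FULA 1, 5.26 for the saline lung and 4.84 for the urethane lung, and its percentile ranks 91.1, 91.8 and 89.6. The 3 values lie close together, and FULA 1 lay between the lungs: -0.15 against the saline lung and 0.27 against the urethane lung. Measured against the median of all genes, the first of these was negative under 3 of 5 scalings and positive under the other 2. In such comparisons, here and below, all genes are those that reached the floor, which was set from the values each scaling used. A further probe set is annotated both to Tyms and to its pseudogene Tyms-ps and was not used; it ranked at 53.8 for FULA 1, 81.0 for the saline lung and 84.0 for the urethane lung. That probe set was the lower one in FULA 1, whereas the Tyms probe set was nearly level.

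**Figure D1:**
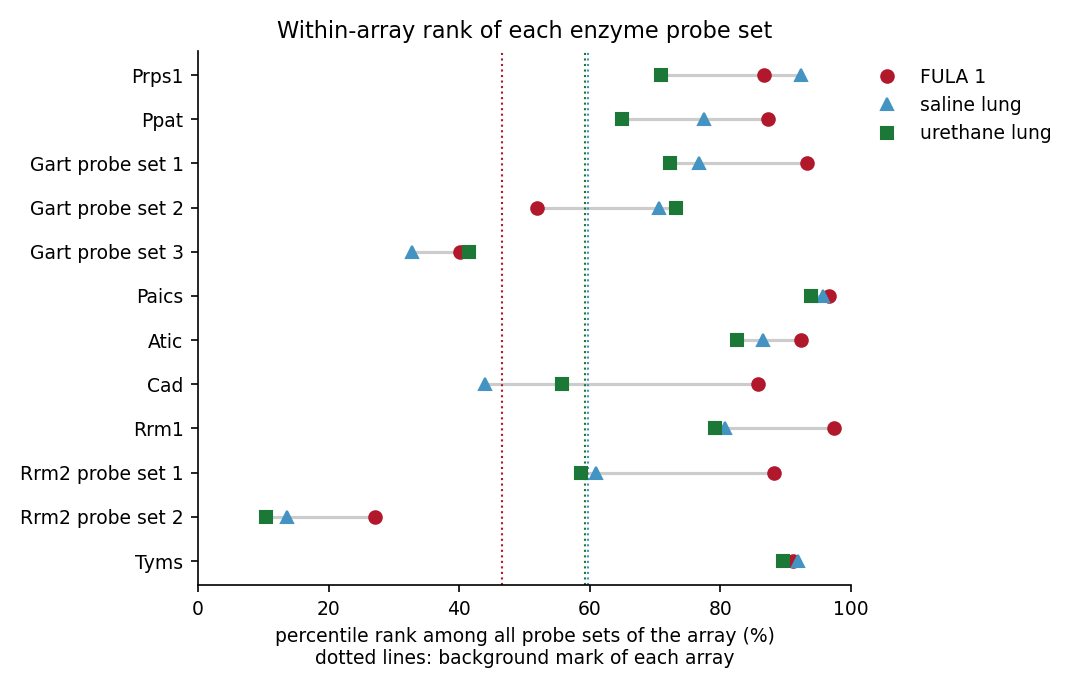
Percentile rank (%, x axis) of each of the 12 enzyme probe sets (rows) among all probe sets of its array, for FULA 1 (circles), saline lung (triangles) and urethane lung (squares); dotted lines mark the background mark of each array. Rrm1, Cad and the first probe sets of Rrm2 and Gart have FULA 1 well to the right of both lungs, the urethane lung is the leftmost array for Prps1 and Ppat, and Tyms and Paics hardly move.

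The sequences just before the start sites are shown for 5 genes that span these patterns: Rrm1, Rrm2 and Cad, high in FULA 1, Tyms, nearly level, and Prps1, which set the lungs apart. Each is the 120 bases before the RefSeq start in GRCm38.p6, on the strand of the gene: Rrm1 at chr7:102441575-102441694 (+), Rrm2 at chr12:24708134-24708253 (+), Tyms at chr5:30073626-30073745 (-), Cad at chr5:31054660-31054779 (+) and Prps1 at chrX:140456483-140456602 (+). Capitals mark matches, on either strand, to 4 kinds of motif: the CCAAT box (CCAAT), the GC box (GGGCGG), the E-box that MYC binds (CACGTG), and E2F words (GGCGGGAA, TTTCCCGC, TTTGGCGC, TTTGCCGC and TTTCGCGC, which can overlap each other and the GC box).
Rrm1: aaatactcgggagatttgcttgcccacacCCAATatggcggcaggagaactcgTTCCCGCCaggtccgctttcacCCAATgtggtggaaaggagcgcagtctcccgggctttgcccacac
Rrm2: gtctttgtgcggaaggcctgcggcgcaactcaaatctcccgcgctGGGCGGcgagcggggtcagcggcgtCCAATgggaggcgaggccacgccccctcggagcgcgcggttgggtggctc
Tyms: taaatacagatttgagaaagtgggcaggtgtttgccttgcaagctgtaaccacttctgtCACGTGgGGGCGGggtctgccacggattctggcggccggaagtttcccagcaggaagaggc
Cad: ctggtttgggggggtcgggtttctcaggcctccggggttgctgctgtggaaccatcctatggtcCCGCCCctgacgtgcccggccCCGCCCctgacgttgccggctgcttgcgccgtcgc
Prps1: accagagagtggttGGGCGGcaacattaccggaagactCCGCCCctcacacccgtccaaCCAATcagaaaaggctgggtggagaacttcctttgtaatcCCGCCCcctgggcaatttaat
In the 250 bases before the start, E2F words were found in 2 of the 9 genes, Rrm1 and Ppat, and in 3.24% of 32851 such windows of all genes. The E-box was in 3 of the 9, Tyms, Atic and Paics, against 6.02% of all windows. The GC box was in 8 of the 9 and the CCAAT box in 6, against 32.7% and 33.8%. The windows of Ppat and Paics lie within each other's annotated genes, which start head to head on opposite strands of chromosome 5. The 250-base window of Cad also overlaps the annotated gene Atraid, though its printed 120 bases do not. A match is only a match of letters, and none of these arrays measured binding.

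Cad, whose protein joins the first 3 steps of pyrimidine synthesis, was high in FULA 1 and at or below background in the lungs. Its normalized values were 4.30 for FULA 1, 1.91 for the saline lung and 2.29 for the urethane lung, at percentile ranks of 85.7, 44.0 and 55.8. Both lungs lay below the mark, so only a bound can be given: Cad was higher in FULA 1 by at least 1.84 (3.57-fold) than in the saline lung and by at least 1.86 than in the urethane lung, while the values themselves differed by 2.40 and 2.01. No size is given between the lungs, since both were below the mark. The saline value of Cad was shared by 371 probe sets. Such ties were not confined to low values. The saline value of Rrm1 was shared by 108 probe sets and that of Tyms by 58. The urethane value of the second of the 3 Gart probe sets was shared by 412.

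The purine enzymes differed less between FULA 1 and the saline lung. Ppat, which commits phosphoribosyl pyrophosphate to purines, had normalized values of 4.51 for FULA 1, 3.52 for the saline lung and 2.72 for the urethane lung, at percentile ranks of 87.3, 77.5 and 64.9. The 3 arrays were spread in that order, and the differences of FULA 1 were 0.99 from the saline lung, just under the 2-fold line, and 1.79 from the urethane lung. Atic, which closes the purine ring, was similarly placed, at 5.37, 4.42 and 3.98 with percentile ranks of 92.3, 86.6 and 82.6. FULA 1 was again the highest array and the urethane lung the lowest, by 0.95 and 1.39. Paics, which carries out a pair of steps in the middle of the pathway, was near the top of every array, at 6.60, 6.27 and 5.71 with percentile ranks of 96.6, 95.7 and 93.8. FULA 1 exceeded the saline lung by 0.33 and the urethane lung by 0.89.

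Gart, which encodes a protein with 3 activities of the purine pathway, gave different answers by probe set. The brightest probe set ranked at 93.2 for FULA 1, 76.8 for the saline lung and 72.3 for the urethane lung, with differences of 2.08 and 2.41 from the lungs. The second ranked at 51.9, 70.5 and 73.2, so that FULA 1 was the lowest array, by -0.88 and -1.06. The third lay below the mark on all arrays, at 40.1, 32.7 and 41.5. Their mean gave 3.16, 2.70 and 2.73, and differences of 0.46 and 0.44; against the median of all genes both turned negative when the arrays were only aligned by their medians. Which probe set follows the Gart transcript was not tested.

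Prps1, which makes phosphoribosyl pyrophosphate, was the enzyme that set the lungs apart. Its normalized value was 4.43 for FULA 1, 5.36 for the saline lung and 3.05 for the urethane lung, at percentile ranks of 86.6, 92.3 and 70.8. The saline lung was the highest array and the urethane lung the lowest, with FULA 1 between them. The urethane lung was lower than the saline lung by 4.94-fold, a difference of -2.31, and no other of the 12519 genes had a lower one. The direction did not depend on the scaling: even as deposited Prps1 was at 2.88 on saline lung and 1.90 on urethane lung, while the median of all genes was 1.15 higher on the urethane array. Relative to that median, the 5 scalings placed Prps1 between -2.62 and -2.09. FULA 1 was at -0.93 against the saline lung and at 1.37 against the urethane lung. Relative to all genes, the first sign turned with the values as deposited (0.65) but not with the arrays aligned by their medians (-0.45). Those 2 settings differ only by a constant per array, so this turn comes from which genes reached the floor. Prps1 rests on 1 probe set, and whether that probe set also reads the related genes Prps1l1 and Prps1l3 was not tested. Its paralogue Prps2, also a phosphoribosyl pyrophosphate synthetase, ranked at 92.5 for FULA 1, 94.0 for the saline lung and 94.4 for the urethane lung, a difference between the lungs of 0.10.

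**Figure D2:**
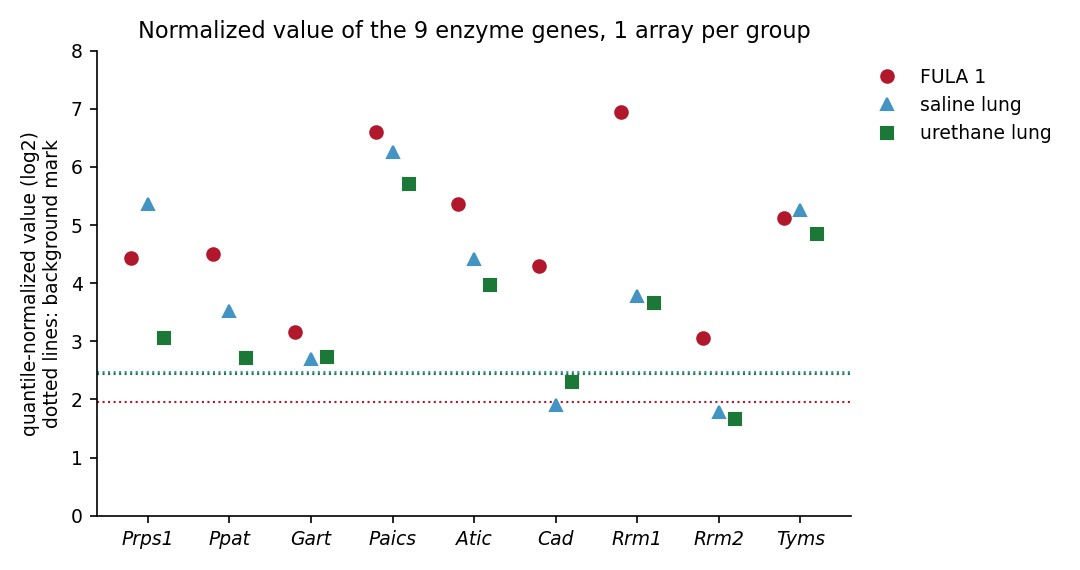
Quantile-normalized value (log2, y axis) of each enzyme gene on FULA 1 (circles), saline lung (triangles) and urethane lung (squares), 1 array per group, as the mean of the gene's probe sets; dotted lines are the background marks. Rrm1 on FULA 1 (6.95) stands far above both lungs, and Prps1 on the urethane lung (3.05) far below the saline lung (5.36).

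Counted together, 3 of the 9 genes (Cad, Rrm1 and Rrm2) were at least 2-fold higher in FULA 1 than in the saline lung and 0 were lower, beside the 22.6% of all genes that were higher; the share of the enzymes is not far from that background. The calls rest on the values as measured. Rrm2 was below the mark in both lungs, and its bounds of 0.59 and 0.61 fall short of 2-fold, so that without it 2 of the 9 were higher; the bound of Cad stays past 2-fold. Their median difference was 0.95, that of all genes 0.02, and 7 of the 9 lay above 0. Against the urethane lung 6 of the 9 were higher, Prps1, Ppat and Atic in addition, or 5 without Rrm2, beside 22.1% of all genes, with a median of 1.38 against 0.07. The comparisons with FULA 1 share the FULA 1 array. With the brightest probe set standing for each gene, Gart joined both counts, which became 4 and 7, beside 23.2% and 22.7% of all genes.

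Between the lungs, 7 of the 9 enzymes lay below 0 and 1, Prps1, was at least 2-fold lower, beside 1.31% of all genes; 7 of the 9 reached the floor there, and Cad and Rrm2 were below the mark in both lungs. The median was -0.42, and that of all genes -0.07. After Prps1 came Ppat at -0.80, Paics at -0.56, Atic at -0.45 and Tyms at -0.42, then Rrm1 at -0.13, whose sign relative to all genes turned under 1 of the 5 scalings. Of the 9 enzymes, all 4 of purine synthesis that were read by a single probe set were thus lower after urethane, and Gart was at 0.03. Only Prps1, Ppat and Paics among these were clearly past the median disagreement of 0.44 between probe sets of one gene; Atic and Tyms were at about it. Relative to the median of all genes, the 9 had a median between -0.35 and -0.27 under the 5 scalings.

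**Figure D3:**
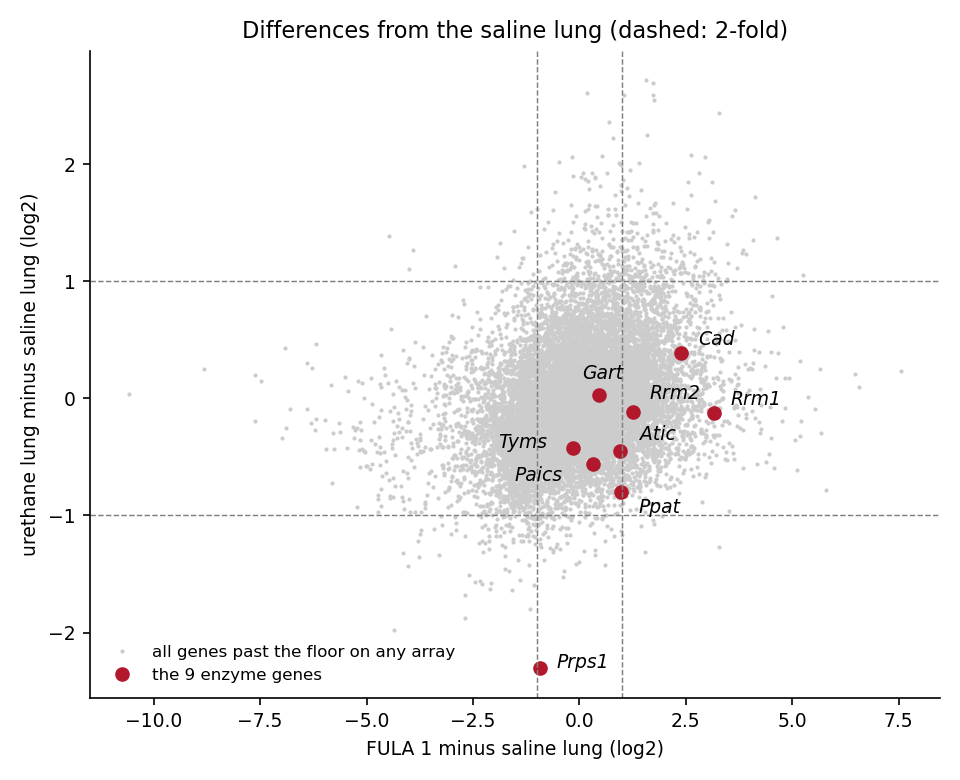
Difference of FULA 1 (x axis) and of the urethane lung (y axis) from the saline lung, in log2 of the normalized value, for the 14101 genes past the floor on any array (grey) and the 9 enzyme genes (red); both axes share the saline array, so the shape of the cloud is not evidence of a relation. Prps1 lies at the lower edge of all genes, and Rrm1 and Cad at the right.

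Markers of the cells in these samples moved as well. Of 12 proliferation genes 11 were measured. As reported, all 11 were at least 2-fold higher in FULA 1 than in the saline and urethane lungs, beside 22.6% and 22.1% of all genes. Under the least favourable of the 5 scalings 10 of 11 were. In each comparison 3 of the 11 lay below the mark in the lung, so only a bound holds for their size. Against the saline lung the 11 had a median of 2.88, and Mki67, the proliferation antigen, was at 3.10. The summed normalized level of the 11 was 69.2 for FULA 1, 38.0 for the saline lung and 35.1 for the urethane lung. Between the lungs 8 of the 11 lay below 0, with a median of -0.30 and Aurkb, a mitotic kinase, at -1.01. Among 6 alveolar type II markers 5 were at least 2-fold lower in FULA 1 than after saline, among 5 endothelial markers all 5, and among 4 alveolar type I markers 3. Of all genes 22.0% were lower. FULA 1 had Sftpc, the surfactant gene of alveolar type II cells, at a percentile rank of 53.5 against 99.8 on both lungs, and Pecam1, of endothelium, at 52.3 against 96.4 and 96.2. The lists were not uniform: against the saline lung the type I marker Aqp5 was at 2.49 and the type II marker Abca3 at 0.78, while Epcam, a pan-epithelial marker, was at -0.51, which turned positive relative to all genes as deposited. The 34 markers of 7 lung cell classes were present in the lungs except Itgam and Cd79a of the leukocyte list, which were below the mark. Summed levels of 6 alveolar type II markers were 14.2 for FULA 1, 43.6 for the saline lung and 46.9 for the urethane lung, and those of 3 club cell markers 4.72, 23.9 and 23.3. In the same order, 4 alveolar type I markers summed to 14.5, 23.5 and 22.5, 5 endothelial markers to 10.3, 30.6 and 29.8, 5 fibroblast markers to 12.2, 26.8 and 28.2, and 7 leukocyte markers to 13.96, 24.9 and 24.4. The 4 pan-epithelial markers summed to 25.5, 16.2 and 17.9, the only class with FULA 1 as the highest array. Between the lungs, Abca3 alone was at 2.23 and made up most of the difference in the type II sum. The part of cell make-up and of cell division in the enzyme values was not tested, and in bulk RNA fewer cells of a type and less RNA per cell cannot be told apart.

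The rest of the purine pathway went both ways in FULA 1 against the saline lung. Of 9 further purine genes measured, 4 were at least 2-fold higher and 2 lower, beside 22.6% and 22.0% of all genes. Those shares also stand beside the counts against the saline lung in the lists that follow. Higher were Adssl1 (2.36) and Adss (1.55), the isozymes that start AMP, Gmps (1.86), which makes GMP, and Prpsap2 (1.65, at least 1.30), a partner of the PRPP synthetases. Lower were Guk1, guanylate kinase, at -1.65, and Impdh1, an isozyme of the first step towards GMP, at -1.52. Adsl, the lyase that acts in the pathway more than once, was at 0.38, Prps2 at -0.37 and Prpsap1 at -0.26; the last 2 were positive relative to all genes under 2 of 5 scalings. Between the lungs 0 of the 9 passed 2-fold, and the largest differences were those of Guk1 at -0.71, Gmps at -0.53 and Adssl1 at 0.44. There 6 of the 9 lay above 0 and 3 below, with a median of 0.08, so the further purine genes were not lower as a set after urethane.

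Of 6 further pyrimidine genes, FULA 1 had 2 higher and 1 lower against the saline lung. Umps, which finishes UMP, was at 1.79, and Ctps, which makes CTP, at 1.51. Dhodh, the mitochondrial step between CAD and UMPS, was at 0.02, Cmpk1 at 0.59 and Ctps2 at -0.24. Cmpk2, a mitochondrial nucleotide kinase also known as an interferon-induced gene, was at -2.43, with a bound of -2.05. Between the lungs Umps was at 0.61 and Ctps at 0.57, both under 2-fold. Both lay toward the FULA 1 value, but the 2 comparisons share the saline array, so the common direction is not evidence of a relation.

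Of 7 further genes of deoxynucleotide supply, FULA 1 had 4 higher and 2 lower, set against the saline lung. Dtymk, the kinase after thymidylate synthase, was at 2.36 and thus differed where Tyms did not. Nme1, a nucleoside diphosphate kinase, was at 1.42 (at least 0.29), Dctd, dCMP deaminase, at 1.18, and Dctpp1, which removes dCTP, at 1.16. Dut, the dUTPase, was at 0.83. The lower ones were Samhd1, which breaks down deoxynucleotides and is active in resting cells, at -1.73, and Rrm2b, the small reductase subunit induced by p53 that serves non-dividing cells, at -1.09. Rrm2b ranked at 74.3 for FULA 1, 86.2 for the saline lung and 82.5 for the urethane lung, so the lungs were the high arrays, the reverse of Rrm2; relative to all genes its difference from the saline lung turned positive with the values as deposited. After urethane Rrm2b was at -0.40.

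Across the 22 further genes of these 3 lists, FULA 1 had 10 higher and 5 lower against the saline lung, with a median of 0.71. Of all genes 22.6% were higher and 22.0% lower, so the count of lower genes is close to that background. Nme1 counts as higher as measured, but its bound of 0.29 falls short of 2-fold. Between the lungs 0 passed 2-fold, beside 3.27% of all genes higher and 1.31% lower, with a median of 0.06.

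**Figure D4:**
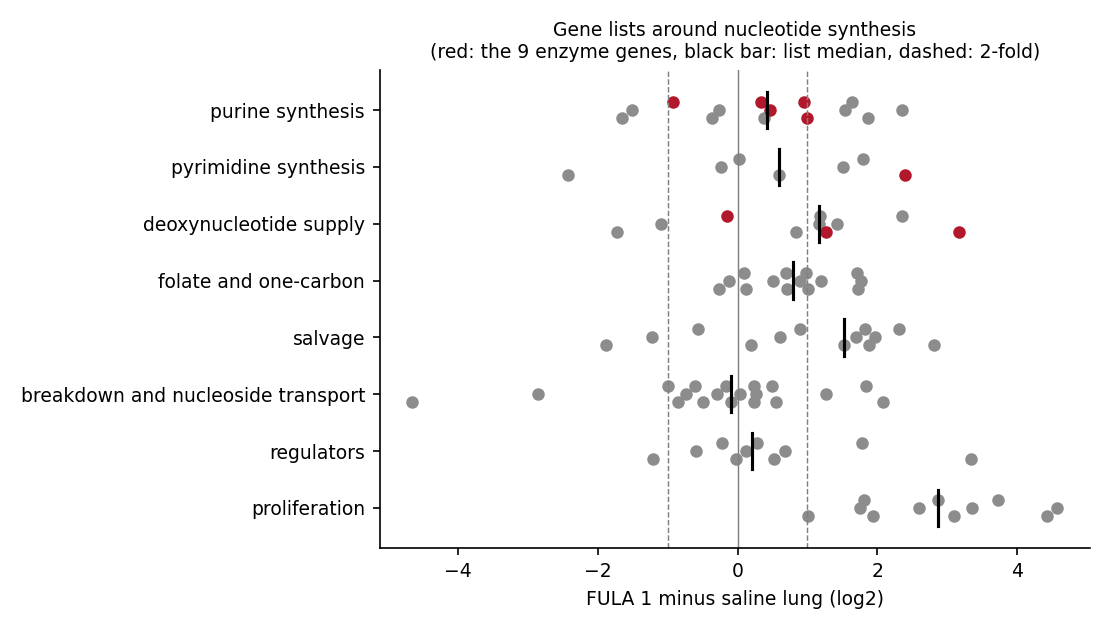
Difference of FULA 1 from the saline lung (log2, x axis) for each measured gene of 8 lists (rows), with the 9 enzyme genes in red, the others in grey and the list median as a black bar; dashed lines mark 2-fold. The proliferation list lies wholly to the right of 2-fold, while the synthesis lists spread over both sides of 0.

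Around the pathway, the folate and one-carbon list, which supplies carbon to purines and thymidylate, had 5 of 14 genes higher and 0 lower when FULA 1 was set against the saline lung, with a median of 0.80. It was led by the serine hydroxymethyltransferases Shmt1 (1.77, at least 1.53) and Shmt2 (1.72), and its lowest were the folate carriers Slc25a32 at -0.26 and Slc46a1 at -0.12, both positive relative to all genes under 2 of 5 scalings. Of the 14, 6 lay below the mark in the saline lung alone and 1 on both arrays. Among the 5 higher genes Aldh1l2, named after its value was seen, was at 1.01, with a bound of 0.25 that falls short of 2-fold. In the salvage list 7 of 13 were higher and 2 lower, with a median of 1.53, above that of the 9 enzymes; the difference of the medians was not tested. Uprt was at 2.81 and Aprt, adenine phosphoribosyltransferase, at 2.31, while uridine phosphorylase Upp1 was at -1.89 and the mitochondrial thymidine kinase Tk2 at -1.22, the latter positive relative to all genes with the values as deposited. Hprt and Adk, of purine salvage, were the 2 salvage genes at least 2-fold higher in the urethane lung than in the saline lung, at 1.04 and 1.13, and were named after their values were seen. HPRT and APRT use phosphoribosyl pyrophosphate, as PPAT does.

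Genes of nucleotide breakdown and nucleoside transport had a median of -0.10 in FULA 1 against the saline lung, with 3 of 19 higher and 2 lower. The lowest was Xdh, xanthine oxidoreductase, which makes uric acid, with percentile ranks of 75.8 for FULA 1, 98.8 for the saline lung and 97.9 for the urethane lung and a difference of -4.66; Entpd1, the surface ectonucleotidase CD39, followed at -2.85. The highest were the nucleotidases Nt5c3 (2.09, at least 1.57) and Nt5c2 (1.83). Among 10 regulators Myc, a transcription factor known to act on many genes of nucleotide synthesis, ranked at 94.8 for FULA 1, 63.2 for the saline lung and 69.3 for the urethane lung, a difference of 3.34 from the saline lung. E2f3 was at 1.78 (at least 1.42), and Max, the partner of MYC, at -1.21, which turned positive relative to all genes as deposited; Mycn lay below the mark on both arrays.

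With the urethane lung in place of the saline lung, the 22 further synthesis genes had 9 higher and 3 lower in FULA 1, with a median of 0.54. Of all genes 22.1% were higher and 19.5% lower there, shares that also stand beside the list counts below. The highest were Dtymk at 2.45, Gmps at 2.40 and Adssl1 at 1.91, and Impdh1 was again low, at -1.90. Cmpk2 was at -1.53 or lower, and Samhd1 was at -1.37, which turned positive relative to all genes as deposited. Nme1 and Dut count as higher as measured, but their bounds of 0.31 and 0.84 fall short of 2-fold. The folate list had 6 genes higher and 0 lower, the salvage list 6 and 1, the breakdown list 4 and 3, and the regulators 2 and 0, with Myc at 3.01. In the folate list Aldh1l2 counts as higher as measured, but its bound of 0.27 falls short of 2-fold. Between the lungs the folate list had 1 gene higher, Aldh1l1, a folate dehydrogenase named after its value was seen, at 1.13 or at least 0.40, and the breakdown genes and regulators had 0 past 2-fold.

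The 5 named genes outside the lists whose ranks lay nearest to the median ranks of the enzymes (87.3 for FULA 1, 80.8 for the saline lung and 70.8 for the urethane lung) were Adh7, Gnpnat1, Chst14, Tmed5 and Ccdc186, at distances from 0.99 to 2.45 percentile points over the 3 arrays. This likeness is over 3 arrays only, and the ranks carry each probe set's brightness as well as the gene's level. The median ranks are those of no single enzyme: the nearest enzyme, Ppat, lay 6.76 points away, and the median distance of the enzymes was 22.1. Of 22048 genes outside the lists, 4419 lay within that median distance.

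**Figure D5:**
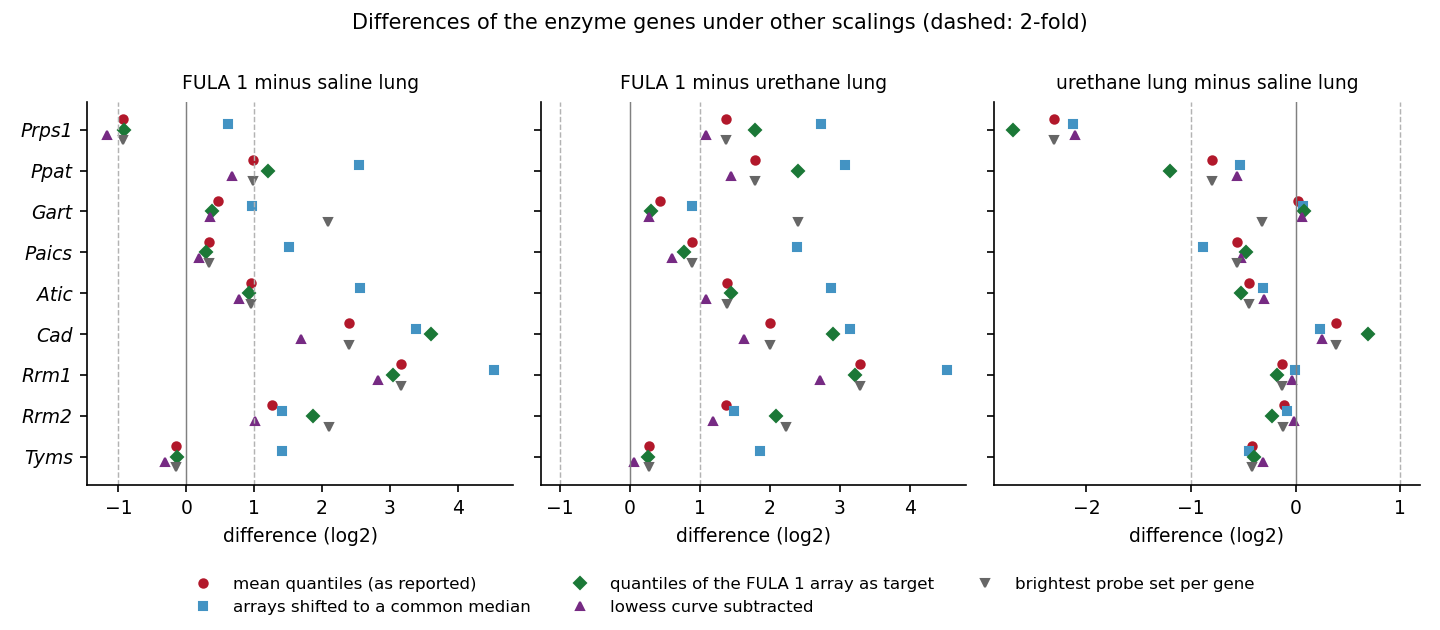
Difference (log2, x axis) of each enzyme gene (rows) in the 3 comparisons under the scaling reported here (circles), 3 other scalings (squares, diamonds, upward triangles) and with the brightest probe set per gene (downward triangles); dashed lines mark 2-fold and the values as deposited are not drawn. Prps1 stays below -2 between the lungs in each setting drawn, Rrm1 stays above 2 in both FULA 1 comparisons, and Prps1 and Tyms cross 0 in the comparison of FULA 1 with the saline lung.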

How the data were processed

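The values that the authors deposited are log2, 1 for each of 41345 probe sets on an array. The submitters' processing notes name RMA, and the series' design text names GeneSpring GX 12.5. Why the columns differ in scale is unknown. All 3 columns were used; 0 columns of other samples were present. Names came from the platform annotation (23521 probe sets with 1 symbol, 1814 with several and not used, 16010 unnamed here), with 23328 symbols updated by Entrez identifier through the RefSeq table of GRCm38.p6. The columns were quantile-normalized to the mean of the sorted columns, ties at their mean rank, and a gene's value is the mean of its probe sets. Where the lower value lay below the background mark, the bound puts the mark in its place. The counting step was checked on simulated data with planted differences, equal across the probe sets of a gene. Such data do not carry the disagreement between probe sets seen here, so the check does not bear on how reliable the calls are. The enzymes and lists were chosen with earlier results of these data known, so no list supports another. The rule for named genes took the 9 enzymes, all further genes of the 3 synthesis lists, Mki67 and the 5 nearest genes. It also took the 2 highest and 2 lowest of each other pathway list by FULA 1 minus saline lung. Marker genes, Aurkb, Aldh1l1, Aldh1l2, Hprt and Adk were added. Of 141 list entries 132 were found and 9 were not analysed here. Promoter sequences are from RefSeq, which matched all 9 enzymes. Other scalings, thresholds (1.5-fold and 4-fold), floors (none, or the 75th percentile) and probe set choices were tried. Python 3.11.15, numpy 2.4.6, pandas 2.3.3, scipy 1.17.1 and statsmodels 0.14.6 were used; lowess used a span of 0.3. The number of arrays limits the precision.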

Additional observations from a re-analysis of the deposited data

How the results depend on the processing

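No paired analysis was possible because each group has 1 array, and no array could be left out. The 4 other scalings moved the median of all genes for FULA 1 minus saline lung to between -0.14 and 4.84, so counts without centring follow the scale. The values as deposited and the arrays aligned by their medians differ only by a constant per array. Between those settings, a sign relative to all genes can turn only because other genes reached the floor. The floor is set from the values of all 3 arrays, so which genes reach it depends in turn on the scale of each array. As deposited, the median of the 9 enzymes was 6.39 against the saline lung (9 genes higher, beside 99.5% of all genes), 6.48 against the urethane lung and 0.83 between the lungs (1 higher, beside 63.9% of all genes, and 0 lower). Aligned by their medians alone, 7 enzymes were higher in FULA 1 than in the saline lung, beside 51.6% of all genes, and the median against the urethane lung was 2.73. At 1.5-fold 5 were higher and 1 lower than in the saline lung, beside 33.9% and 33.7% of all genes, and 2 were lower after urethane, beside 10.7%. With the FULA 1 quantiles as target 2 were lower after urethane, beside 7.17% of all genes, and with lowess FULA 1 had 1 enzyme lower, set against the saline lung, beside 24.2% of all genes. At 4-fold 2 were higher in FULA 1 than in the urethane lung, beside 5.84% of all genes. Of the 81 values of counts and medians under alternatives, 67 stayed within 1.5 times the count or within the median gap of probe set pairs. For single enzymes 200 values stayed within that gap and 43 did not. The threshold and floor settings cannot change a difference or a median, and the brightest probe set can change a difference only for Gart and Rrm2. Values fixed in this way are included in the 67 and the 200, so these counts overstate how stable the values were. No enzyme difference of at least 2-fold under the reported scaling changed sign. Differences that reached 2-fold only under another scaling did: Prps1 in FULA 1 against the saline lung was at -1.17 with lowess and 0.61 aligned by medians, and Ppat between the lungs at -1.20 with the FULA 1 quantiles and 0.62 as deposited. The cause of these shifts was not tested beyond the settings' own construction. Low signal limits Cad, Rrm2 and the dim Gart probe sets.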
